A study of Mus musculus with 26 samples.

Results

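The comparison described here is a difference of differences: the change that followed erythropoietin (Epo) in the EryCP fraction of EML cells, minus the change that followed Epo in the CD34- CD103- fraction. EML cells are a mouse line of multipotent blood progenitors, described by the submitters as erythroid, myeloid and lymphoid in potential, that depends on stem cell factor. The comparison used 13 of the 26 arrays of the series, chosen by their labels alone: 3 of Ediff, 3 of EryCP (those titled repeat), 3 of CD34- CD103- Epo and 4 of CD34- CD103-. Ediff cells were taken from the EryCP fraction after differentiation driven by Epo, and only cells negative for CD34 and cKit were kept. The CD34- CD103- Epo cells were the CD34- CD103- fraction after differentiation with Epo. The labels give EML as the line of origin of all 4 groups, but the sample titles start with EML in the first pair and with EMLe2 in the second, a prefix they do not explain. The groups share growth medium with horse serum and SCF-conditioned medium, and extraction of total RNA with TRIzol. Neither the dose and duration of Epo nor any second sort of the CD34- CD103- Epo cells is given in the labels used here. Nothing in the labels ties replicates to separate cultures, so p-values measure only the spread between these samples.

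Each response was measured within its own array set, because the 4 groups were not hybridised together. The Ediff response is Ediff minus EryCP repeat, and the CD34- CD103- response is CD34- CD103- Epo minus CD34- CD103-. The difference is the first minus the second, so a positive value is higher in the Ediff response. The array set (slides, scans and the version of the scanner software) and the title prefix change together with the starting fraction, and so does the gate that selected Ediff cells. The array set, the title prefix, the gate and the starting fraction cannot be told apart as sources of any difference given here.

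Epo is the hormone that sustains red cell precursors: it binds its receptor on the cell surface, activates the kinase Jak2 and the transcription factor Stat5, and so turns on feedback inhibitors and survival genes. Cells that enter the erythroid lineage use Gata1 and Klf1 to switch on globins, heme synthesis, iron import and the membrane proteins of the red cell, and they switch off Gata2, Kit and the genes of other blood lineages. EML cultures also hold cells that express mast cell, basophil and granulocyte genes, whose granule proteases are among the most cell-type-specific transcripts in blood.

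Levels are log2 of the processed signal of a probe minus the 75th percentile of its array, so 0 is the brightness of a fairly abundant transcript and a step of 1 is a factor of 2. A level is compared only with the same probe on other arrays. Fold changes and differences are on that log2 scale with a standard error (SE) from a limma fit over the 13 arrays with 9 residual degrees of freedom. A gene is called where the p-value after Benjamini-Hochberg adjustment over all 27292 genes tested was under 0.05. Of these 27292, 16770 had a gene name, and the rest were unnamed probes, each counted as a gene. The shares of all genes given below include the unnamed probes. A probe that no array of a group showed well above background has only an upper limit there, and its fold is given as "at least".

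The transcripts of the sorting markers placed the fractions apart before Epo. Cd34, which encodes the progenitor marker CD34, stood at a mean level of 5.05 ± 0.31 (SD, n = 4) in CD34- CD103- cells, whose label is CD34-negative, and at 0.31 in EryCP repeat. In the CD34+ CD103- arrays of the second set it averaged 6.83, from 6.72 to 7.04, above every CD34- CD103- array (4.59 to 5.25), so within that set the order follows the labels. Itgae, which encodes CD103, averaged -0.19 in CD34- CD103- and 3.19 in EryCP repeat. Ly6a, which encodes Sca1, averaged 3.24 and -3.49 in the same order. The starting level of Epor, the Epo receptor, was 1.40 in CD34- CD103- and 2.89 in EryCP repeat. Kit, the receptor for stem cell factor, averaged 4.55 and 4.62. These values set arrays of different sets side by side and were not tested.

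After Epo, Cd34 stood at 5.48, 5.87 and 5.89 in the CD34- CD103- Epo samples and was not well above background in any Ediff sample. Its fall in the Ediff response was at least 73-fold, and its change in the CD34- CD103- response was 0.70 ± 0.28 (SE; limma adjusted p = 0.237). Kit fell 9.91-fold in the Ediff response (-3.31 ± 0.12, limma adjusted p = 1.1e-09) and was -0.35 ± 0.11 in the CD34- CD103- response (adjusted p = 0.153). Cd34 and Kit encode the proteins that the Ediff gate selected against, so their falls cannot be told apart from the gate. Itgae fell 30.4-fold in the Ediff response and was -0.50 ± 0.17 in the CD34- CD103- response (adjusted p = 0.177). Ly6a fell by 0.96 ± 0.21 and 1.03 ± 0.20 in the Ediff and CD34- CD103- responses, and their difference was 0.07 with a 95% interval from -0.56 to 0.70. The latter fall had an adjusted p of 0.102 with slide as a fixed block.

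The Ediff response changed far more genes than the CD34- CD103- response. Of the 27292 genes, 16326 (59.8%) were called in the Ediff response, 11723 higher (43%) and 4603 lower (16.9%). The CD34- CD103- response had 658 called genes (2.41%), 186 higher (0.682%) and 472 lower (1.73%). The difference between the responses was called for 10323 genes (37.8%), 6434 higher in the Ediff response (23.6%) and 3889 lower (14.2%). Among these, 2828 were at least 2-fold higher and 2242 at least 2-fold lower, and 275 and 573 passed 8-fold. The standard deviation of the response over all genes was 1.16 for Ediff and 0.35 for CD34- CD103-. The median SE was 0.17 and 0.16 in the same order. The plot of one response against the other shows the same contrast gene by gene.

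**Figure D1:**
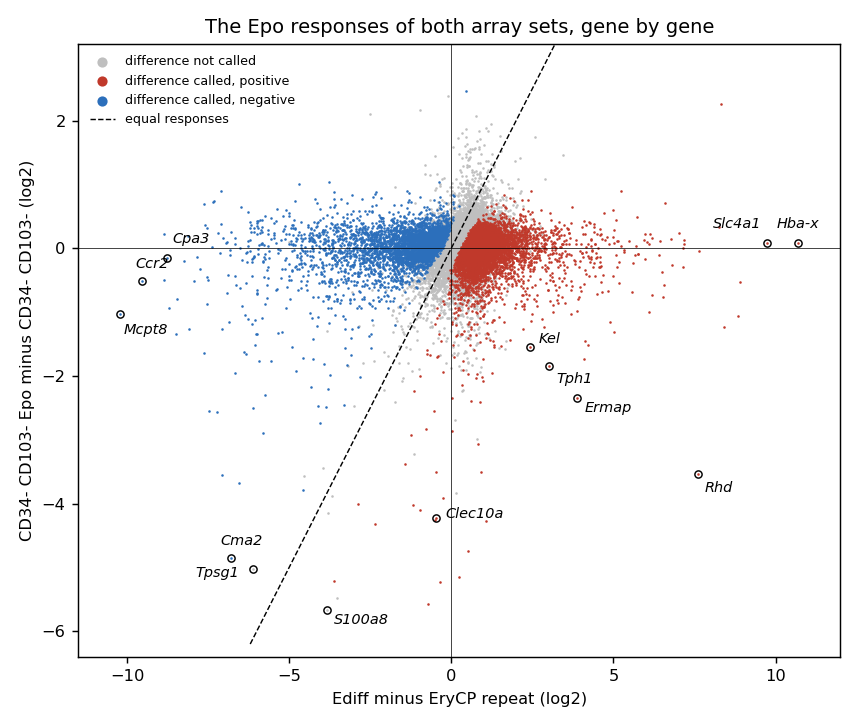
Each point is a gene, with its change in the Ediff response on the x axis and in the CD34- CD103- response on the y axis, both in log2 units; red and blue points were called higher or lower in the difference, grey points were not called, the dashed line marks equal responses and circles mark named genes. The cloud is far wider along x (SD 1.16) than along y (SD 0.35), and Rhd lies at 7.60 on x and -3.54 on y.

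Most genes of the difference came from the Ediff response. Of the 10323 called genes, 9437 were called in the Ediff response and not in the other, 93 in the CD34- CD103- response and not in the Ediff response, 208 in both with opposite signs, 218 in both with the same sign, and 367 in neither. The difference was measured on both sides for 9732 of them and was a lower limit for 375. Read from the other side, 519 of the 658 genes of the CD34- CD103- response were also called in the difference, beside 37.8% of all genes. Of its 472 falling genes, 256 (54.2%) fell in the Ediff response too, 137 (29%) rose there and 79 were not called. Over all genes 16.9% fell and 43% rose in the Ediff response. Of the 186 rising genes of the CD34- CD103- response, 82 (44.1%) rose in the Ediff response, 71 (38.2%) fell and 33 were not called. The share of these that rose is near the share of all genes that rose. Across all genes the responses had r = 0.16, a description over genes, which are not independent replicates.

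How many genes rose rather than fell depended on the scaling. The median gene was shifted by 0.46 in the Ediff response and 0.08 in the CD34- CD103- response, and by 0.37 in the difference. The share of called genes that were higher in the difference was 62.3%. It was 49.5% after quantile normalization over the 13 arrays, 50.5% after quantile normalization within sets, 42.8% with centring on the array median and 12.8% with centring on 9 spike-in probes. Spike-in centring moved the median gene to -0.58 in the Ediff response, -0.24 in the CD34- CD103- response and -0.36 in the difference. The share higher in the Ediff response was 71.8% and moved to 57%, 57.9%, 52.4% and 6.56% under those 4 settings. The share higher in the CD34- CD103- response was 28.3% and moved to 27.3%, 23.1%, 7.67% and 0.477%. Differences under 1 in either direction are therefore read below against the median gene, and counts with spike-in centring are given where they turn a group. In that setting 888 of all 27292 genes were called higher in the difference and 6062 lower. List counts with spike-in centring are to be read beside these, not beside the shares of the main scaling.

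Overall brightness and the spike-in signal moved with the groups, and local background differed between the sets. Local background ran from 20 to 25 in the first pair of groups and from 34 to 39 in the second. The share of probes well above background ran from 76% to 82.4% and from 84.1% to 87% in the same order. CD34- CD103- Epo array 2 had 446 spots with outlier marks, and the other arrays used had 48 to 224. The 75th percentile of the processed signal ran from 425.3 to 460.9 in Ediff, 598.6 to 704.2 in EryCP repeat, 757.9 to 956.7 in CD34- CD103- Epo and 869.4 to 1100 in CD34- CD103-. The median spike-in signal ran from 3964 to 4761 in Ediff and from 2835 to 3394 in EryCP repeat, but lay between 2395 and 3045 in the second pair of groups. Their part in the differences was not tested beyond the settings above. Replicates of a group correlated at 0.9828 to 0.9962, and no pair of arrays was identical. Each set was spread over slides, 2 for the first pair and 3 for the second. In the second pair, slide 1 held CD34- CD103- array 1 and Epo arrays 1 and 3. Slide 2 held CD34- CD103- array 3 and Epo array 2, so its within-slide values below set 1 array against 1. Slide 3 held CD34- CD103- arrays 2 and 4 with no Epo array. Each slide of the first pair held 1 array of one group and 2 of the other. With slide as a fixed block the difference was called for 12852 genes, 8791 higher and 4061 lower (68.4% higher), and the CD34- CD103- response for 564. With slide as a random block it was called for 12939 genes.

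The next 4 genes stand at or near the ends of the difference over all genes tested. Rhd has the highest value (11.15) and Mcpt8 the lowest (-9.19), with Hba-x at 10.61 and Ccr2 at -9.02. Because they are extremes of this same contrast, their p-values are a description and no independent test. Rhd, the red cell Rh blood group protein, rose in the Ediff response and fell in the CD34- CD103- response. Its level was 6.35, 6.40 and 6.18 in Ediff and -1.77, -1.61 and -0.51 in EryCP repeat. It was -4.48, -4.86, -3.72 and -4.27 in CD34- CD103-, and -7.35, -8.48 and -7.80 in CD34- CD103- Epo, where the probe was not well above background. All Ediff samples lay above EryCP repeat, and all CD34- CD103- Epo samples lay below CD34- CD103-, with no overlap in either pair. Rhd rose 195-fold in the Ediff response (7.60 ± 0.38, limma adjusted p = 1.43e-08) and fell at least 4.4-fold in the CD34- CD103- response (adjusted p = 0.00026). The difference was 11.15 ± 0.52 (adjusted p = 1.56e-08) and at least 9.74 with the background limit. Within slides the Ediff response was 7.88 and 7.53 and the CD34- CD103- response -3.09 and -4.76. With normexp background correction the fall in the CD34- CD103- response was -0.43 (adjusted p = 1), and over all genes that setting left 19 calls in this response.

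Hba-x, the embryonic zeta globin, rose in the Ediff response and did not pass the test in the CD34- CD103- response. Its level was 5.59, 5.6 and 5.6 in Ediff against -5.72, -4.58 and -5.00 in EryCP repeat, a rise of 1660-fold (10.70 ± 0.27, limma adjusted p = 5.31e-11). In CD34- CD103- Epo it was -5.30, -5.23 and -4.88, inside the range of the CD34- CD103- samples (-4.73, -5.47, -5.18 and -5.52). The CD34- CD103- response was 0.09 ± 0.25 (adjusted p = 0.916), and the difference was 10.61 ± 0.37 (adjusted p = 1.77e-09).

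Mcpt8, a granule protease that marks basophils, fell in both responses and far more in that of Ediff. It stood at 5.29, 5.36 and 5.22 in EryCP repeat and at -5.57, -4.43 and -4.80 in Ediff, where it was well above background on 2 of 3 arrays. It fell 1190-fold there (-10.22 ± 0.25, limma adjusted p = 3.59e-11). With Epo in the CD34- CD103- fraction it went from 4.32, 4.33, 4.52 and 4.21 to 3.31, 3.64 and 2.99, a fall of 2.04-fold (-1.03 ± 0.23, adjusted p = 0.0441). The groups did not overlap in either pair, and the difference was -9.19 ± 0.34 (adjusted p = 2.63e-09). The smaller fall passed the threshold by little: its adjusted p was 0.131 with array-median centring, 0.0627 after quantile normalization and 0.101 with slide as a fixed block.

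Ccr2, a chemokine receptor of monocytes and of mast cell progenitors, was lost below background in Ediff. It stood at 1.63, 1.66 and 1.76 in EryCP repeat and was not well above background on any Ediff array, a fall of at least 190-fold. In CD34- CD103- Epo it was 0.99, 1.27 and 0.88 against 1.23, 1.77, 1.42 and 1.79 before, and these ranges overlap. The CD34- CD103- response was -0.51 ± 0.15 (limma adjusted p = 0.114). The difference was -9.02 ± 0.22 (adjusted p = 1.37e-10), at least 7.06 in size with the background limit. Under normexp background correction it shrank to -2.27 (adjusted p = 0.174).

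**Figure D2:**
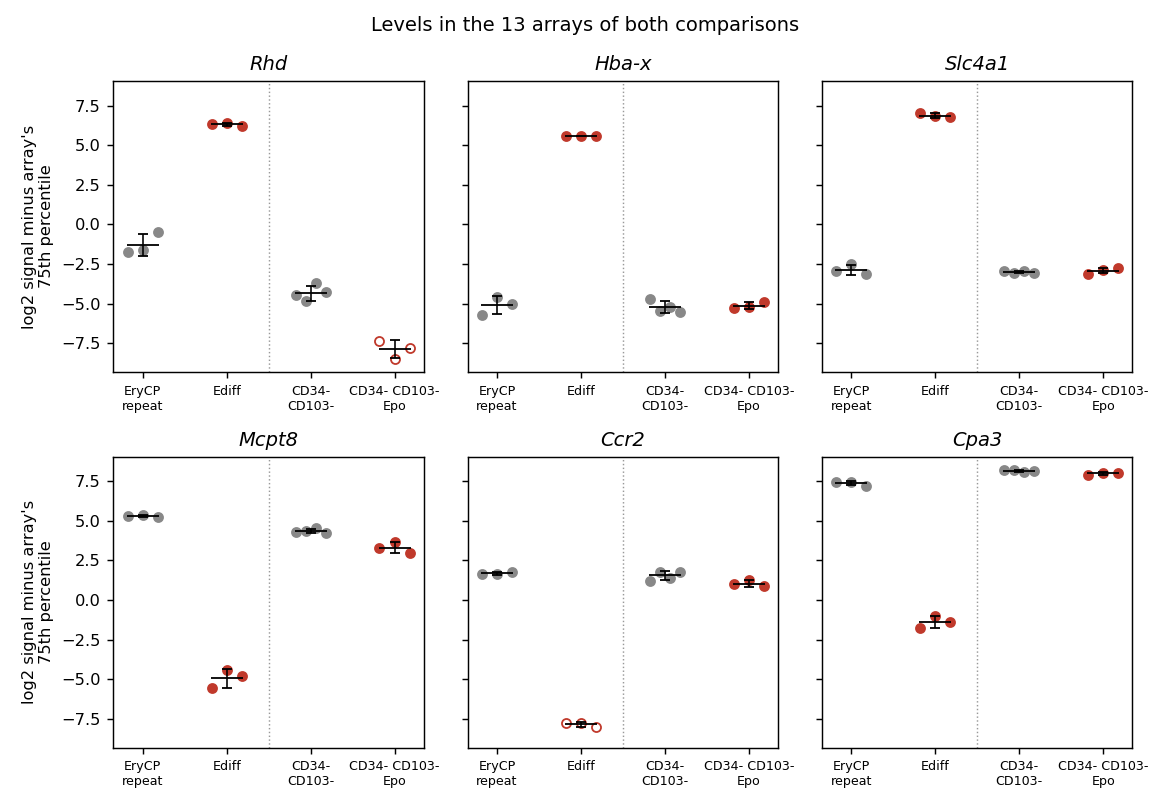
Level of 6 genes on every array (log2 signal minus the array's 75th percentile, y axis) for the 4 groups on the x axis; points are samples, open points belong to groups with no array well above background, and bars are the mean and SD. Rhd, Hba-x and Slc4a1 are high in Ediff, Mcpt8, Ccr2 and Cpa3 are low there, and the CD34- CD103- pair differs by at most 1.03 on average except for Rhd (-3.54).

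The promoters of these 4 genes are shown with those of Ermap and Kel, which like Rhd rose in Ediff and fell in CD34- CD103- Epo, and of Cpa3, which fell in Ediff. The sequences are from RefSeq (GRCm38.p6) and run from 250 bases before the start of the gene to 50 after, on the strand of the gene. Rhd lies at chr4:134864286-134864585 (plus strand), Ermap at chr4:119189946-119190245 (minus), Kel at chr6:41704276-41704575 (minus), Hba-x at chr11:32276350-32276649 (plus), Mcpt8 at chr14:56085148-56085447 (minus), Ccr2 at chr9:124101933-124102232 (plus) and Cpa3 at chr3:20242132-20242431 (minus). Capitals mark AGATAA, a form of the site that Gata factors bind, and CACCC, the core of the site that Klf1 binds, on either strand.
Rhd: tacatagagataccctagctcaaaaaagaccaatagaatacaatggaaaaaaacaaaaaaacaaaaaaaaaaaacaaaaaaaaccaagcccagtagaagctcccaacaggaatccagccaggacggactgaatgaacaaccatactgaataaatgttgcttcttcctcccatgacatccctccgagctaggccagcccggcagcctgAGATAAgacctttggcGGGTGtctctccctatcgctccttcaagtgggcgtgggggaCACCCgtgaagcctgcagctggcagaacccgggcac
Ermap: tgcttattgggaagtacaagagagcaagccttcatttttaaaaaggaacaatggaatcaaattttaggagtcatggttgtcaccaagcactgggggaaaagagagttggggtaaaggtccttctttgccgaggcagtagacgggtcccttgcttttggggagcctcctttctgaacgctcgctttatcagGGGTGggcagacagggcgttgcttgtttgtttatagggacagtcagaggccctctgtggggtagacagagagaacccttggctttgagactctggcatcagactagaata
Kel: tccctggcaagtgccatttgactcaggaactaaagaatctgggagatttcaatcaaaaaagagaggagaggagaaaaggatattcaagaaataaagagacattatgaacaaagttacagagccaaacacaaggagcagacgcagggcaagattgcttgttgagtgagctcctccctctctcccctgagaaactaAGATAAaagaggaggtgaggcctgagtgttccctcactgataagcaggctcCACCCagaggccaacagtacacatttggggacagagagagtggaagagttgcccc
Hba-x: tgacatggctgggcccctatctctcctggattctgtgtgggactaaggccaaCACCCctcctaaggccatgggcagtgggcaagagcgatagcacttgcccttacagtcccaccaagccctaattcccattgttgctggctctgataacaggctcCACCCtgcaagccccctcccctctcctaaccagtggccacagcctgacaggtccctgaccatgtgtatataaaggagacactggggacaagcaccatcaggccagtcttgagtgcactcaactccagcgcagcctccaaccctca
Mcpt8: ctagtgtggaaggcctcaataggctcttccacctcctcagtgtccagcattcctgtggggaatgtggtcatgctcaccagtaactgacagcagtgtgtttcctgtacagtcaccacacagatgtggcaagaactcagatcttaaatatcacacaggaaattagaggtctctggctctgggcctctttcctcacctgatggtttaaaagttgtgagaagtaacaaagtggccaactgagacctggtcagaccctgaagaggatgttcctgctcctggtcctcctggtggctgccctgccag
Ccr2: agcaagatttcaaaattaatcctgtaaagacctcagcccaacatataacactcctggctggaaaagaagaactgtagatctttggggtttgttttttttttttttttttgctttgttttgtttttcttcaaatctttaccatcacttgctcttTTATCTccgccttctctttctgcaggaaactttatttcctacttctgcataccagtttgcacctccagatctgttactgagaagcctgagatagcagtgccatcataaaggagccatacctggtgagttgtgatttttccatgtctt
Cpa3: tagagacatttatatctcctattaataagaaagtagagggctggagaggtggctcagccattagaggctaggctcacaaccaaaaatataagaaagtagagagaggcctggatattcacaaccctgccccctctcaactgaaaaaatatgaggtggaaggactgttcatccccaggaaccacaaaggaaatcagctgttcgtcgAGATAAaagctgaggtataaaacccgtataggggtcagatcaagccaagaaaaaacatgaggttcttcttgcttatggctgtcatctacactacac
AGATAA lay at -43 in Rhd, -56 in Kel, -97 in Ccr2 and -46 in Cpa3, counted from the gene start, and was not found in Ermap, Hba-x or Mcpt8. CACCC was found at 2 places in Rhd, 1 in Ermap, 1 in Kel and 2 in Hba-x. Of all 32851 promoters of this length, 11.2% held AGATAA and 57.5% held CACCC. Other forms of the Gata site were not searched, so a promoter without AGATAA may still hold one. A match is a description of the letters. AGATAA was in promoters of genes that rose in Ediff and of genes that fell.

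Globin genes rose in the Ediff response. The list (globins and their partners) had 7 tested members. All 7 were called higher in the difference, with a median of 4.91, beside 23.6% called higher and a median of 0.37 over all genes. By limma, 0 of 7 were called in the CD34- CD103- response, with 1 higher and 1 lower at an unadjusted p under 0.05. At that unadjusted p, 2692 of all 27292 genes were higher and 1754 lower. Hba-a1, an alpha globin of adult cells, stood at 9.43, 9.71 and 9.45 in Ediff and at 2.80, 2.60 and 3.49 in EryCP repeat. It rose 94.4-fold and differed by 7.14 ± 0.39 (limma adjusted p = 6.55e-08). Hbb-bh1, an embryonic beta-like globin, went from 3.41, 3.36 and 4.14 to 8.53, 8.47 and 8.54, a rise of 29.4-fold. Its level in the CD34- CD103- fraction went from 1.10, 0.18, 0.89 and 0.36 to -0.27, -1.06 and -0.23 with Epo. Those samples do not overlap, but the change of -1.15 ± 0.28 had an adjusted p of 0.0586. Within slides it was -1.35 and -1.95, and the fall was called with slide as a fixed block (-1.61, adjusted p = 0.0142), spike-in centring (0.0287) and quantile normalization (0.0442).

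The membrane proteins and skeleton of the red cell followed the globins. Of 16 members, 15 were called higher in the difference and 0 lower (median 4.2), beside 23.6% and 14.2% of all genes. All 16 rose in the Ediff response, beside 43% of all genes. Slc4a1, the band 3 anion exchanger, went from -2.96, -2.52 and -3.15 to 7.03, 6.82 and 6.75, a rise of 856-fold. Its CD34- CD103- samples stood at -2.93, -3.07, -2.96 and -3.04 without Epo and at -3.12, -2.85 and -2.76 with it, and these overlap. Its difference was 9.65 ± 0.21 (limma adjusted p = 9.4e-11). Ank1, the ankyrin that ties band 3 to the skeleton, differed by 7.68 ± 0.20, and Mpp1, a palmitoylated membrane protein, by 3.65 ± 0.12. Slc14a1, a urea transporter named after its values were seen, rose by 0.72 ± 0.07 in the CD34- CD103- response (limma adjusted p = 0.000289). Its change there was 0.40 with spike-in centring (adjusted p = 0.323).

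Blood group antigens were the list in which the fall in the CD34- CD103- response was most often called among the erythroid lists. All 12 members were called higher in the difference (median 3.68), beside 23.6% of all genes. All 12 rose in the Ediff response, beside 43% of all genes. Of the 12, 4 fell (Rhd, Ermap, Kel and Cd44) and 0 rose in the CD34- CD103- response, beside 1.73% of all genes that fell, and the median member changed by -0.36. Spike-in centring gave 11 and 4, the slide block 12 and 4, and normexp 8 and 0. Gypc, glycophorin C, differed by 4.87 ± 0.24, of which -0.30 ± 0.16 came from the CD34- CD103- response (adjusted p = 0.414). Cd44, an adhesion receptor that carries a blood group antigen, rose by 1.09 ± 0.24 in the Ediff response and fell by 1.32 ± 0.22 in the other (adjusted p = 0.00227 and 0.00927). The rise was 0.05 with spike-in centring (adjusted p = 0.901), and the fall had an adjusted p of 0.0616 with the slide block.

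Enzymes of heme synthesis and breakdown were mostly higher in the difference. Of 16 members, 13 were called higher in the difference and 1 lower (median 2.53), beside 23.6% and 14.2% of all genes. Alas2, the erythroid enzyme of the first step of heme synthesis, went from 0.30, 0.20 and 0.09 in EryCP repeat to 7.42, 7.30 and 7.33 in Ediff, a rise of 142-fold. With Epo in the CD34- CD103- fraction it went from -3.83, -4.27, -3.80 and -4.2 to -4.37, -4.22 and -4.41, which overlap (-0.30 ± 0.12, limma adjusted p = 0.254). With slide as a fixed block the fall was called (-0.50, adjusted p = 0.0339). Cpox and Uros, enzymes of later steps, differed by 3.72 ± 0.18 and 2.75 ± 0.10. Hmox1, which breaks heme down, was the 1 called lower. It rose by 0.70 ± 0.14 in the CD34- CD103- response, from 2.73 to 2.82 without Epo to 3.63, 3.14 and 3.69 with it (adjusted p = 0.0214), and was 0.04 ± 0.15 in the Ediff response. The rise was not called with spike-in centring (0.38), array-median centring (0.66) or the slide block (0.64), with adjusted p of 0.455, 0.183 and 0.0664.

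Iron handling and red cell enzymes were less uniform, beside 23.6% of all genes called higher in the difference and 14.2% called lower. Spike-in centring gave 888 higher and 6062 lower over all 27292 genes. Of 14 iron genes, 9 were called higher and 0 lower (median 0.81), and with spike-in centring 5 were higher and 2 lower (median 0.09). Slc25a37, the mitochondrial iron importer, rose in the Ediff response by 4.16 ± 0.09 and in the CD34- CD103- response by 0.37 ± 0.08 (limma adjusted p = 0.0447). The smaller rise was not called with quantile normalization, array-median centring or normexp, and was 0.05 with spike-in centring and 0.34 with the slide block (adjusted p = 0.893 and 0.137). Tfrc, the transferrin receptor, differed by 2.35 ± 0.12, and Glrx5, which helps build iron-sulphur clusters, by 1.79 ± 0.15. Of 14 carbonic anhydrases and red cell enzymes, 6 were called higher and 2 lower (median 0.65), and the median turned to -0.07 with spike-in centring. The share of this list called lower is near that of all genes. Car2, a carbonic anhydrase, differed by 4.70 ± 0.30 and Prdx2, a peroxidase, by 2.63 ± 0.18. Pkm, a pyruvate kinase whose product is replaced by another isoenzyme in red cells, differed by -3.72 ± 0.19. Car1, another carbonic anhydrase, rose by 2.48 ± 0.20 in the Ediff response and fell by 1.03 ± 0.19 in the CD34- CD103- response (adjusted p = 0.0152).

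Genes of terminal remodelling, when precursors shed organelles and the nucleus, were called higher in 16 of 19 and lower in 0 (median 1.81). With spike-in centring the counts were 11 and 1, beside 888 and 6062 of all 27292 genes. Over all genes 23.6% were called higher in the difference and 14.2% lower. Tent5c, which lengthens the tails of transcripts, went from -6.75, -6.75 and -6.31 to 2.42, 2.27 and 2.24 and differed by 9.44 ± 0.27. EryCP repeat showed it well above background on 1 of 3 arrays. Trim10, a protein needed for erythroid maturation, differed by 7.12 ± 0.24. Over 50 genes pooled from the globin, membrane, blood group and heme lists, 46 were called higher in the difference and 1 lower. Of these 50, 2 rose and 5 fell in the CD34- CD103- response, beside 0.682% and 1.73% of all genes. Their median there was -0.07, and at an unadjusted p under 0.05 limma gave 4 higher and 14 lower. Over all 27292 genes that threshold gave 2692 higher and 1754 lower.

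**Figure D3:**
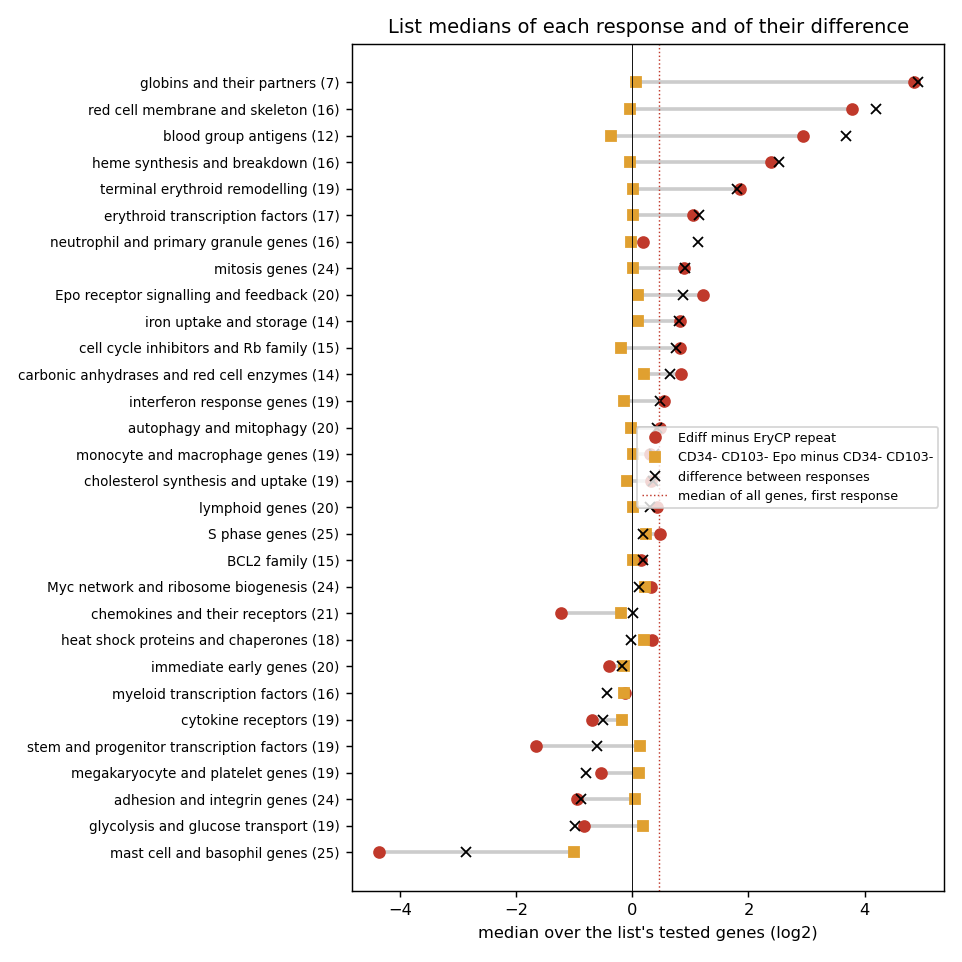
Median over the tested members of each gene list (x axis, log2; list and number of members on the y axis) in the Ediff response (circles), the CD34- CD103- response (squares) and the difference (crosses), with the Ediff median of all genes (0.46) dotted. The Ediff medians of the erythroid lists lie between 0.82 and 4.85 and those of the CD34- CD103- response between -0.36 and 0.20, while the mast cell list lies at -4.36 and -1.01.

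Erythroid transcription factors followed the same order with smaller sizes. Of 17, 13 were called higher and 1 lower (median 1.14), beside 23.6% and 14.2% of all genes. With spike-in centring 5 were higher and 4 lower (median 0.41), beside 888 and 6062 of all 27292 genes. The count thus depends on the scaling. Klf1, which turns on adult globin and membrane genes, stood at 5.84, 5.84 and 5.75 in Ediff and 2.67, 2.54 and 3.10 in EryCP repeat, a rise of 8.23-fold. It went from 0.37, -0.28, 0.25 and -0.30 to -0.70, -0.86 and -0.87 with Epo in the CD34- CD103- fraction, a fall of 1.76-fold (limma adjusted p = 0.0411). The samples do not overlap in either pair, and the difference was 3.86 ± 0.27 (adjusted p = 4.3e-07). The fall was not called with array-median centring (-0.86, adjusted p = 0.108). Klf3, a repressor that is itself a Klf1 target, differed by 5.18 ± 0.15, Sox6 by 3.16 ± 0.16 and E2f2, a cell cycle factor of late erythroblasts, by 2.63 ± 0.14.

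Gata1, the central erythroid factor, moved in opposite directions with the chosen scaling. It stood at 3.67, 3.70 and 3.69 in Ediff and at 2.76, 2.73 and 2.71 in EryCP repeat, a rise of 1.94-fold (limma adjusted p = 6.78e-05). It stood at 0.38, 0.13 and 0.17 in CD34- CD103- Epo and at 1.14, 0.72, 1.06 and 0.68 in CD34- CD103-, a fall of 1.6-fold (adjusted p = 0.0123, or 0.0526 with array-median centring). The difference was 1.63 ± 0.17 (adjusted p = 1.8e-05). With spike-in centring the Ediff response was -0.09 (adjusted p = 0.767), the CD34- CD103- response -1.0 and the difference 0.91 (adjusted p = 0.0509). Its partner Gata2, which is active in progenitors and mast cells, fell 11.2-fold in the Ediff response and was -0.57 ± 0.13 in the CD34- CD103- response (adjusted p = 0.0544, or 0.0423 with the slide block), a difference of -2.91 ± 0.20.

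Epo signalling genes were called in both directions in the difference, and signalling itself was not measured. Of 20 members, 9 were called higher in the difference and 5 lower, beside 23.6% and 14.2% of all genes. The list median was 0.88, or 0.16 with spike-in centring. By limma, 0 were called higher and 2 lower in the CD34- CD103- response, beside 0.682% and 1.73% of all genes. The 2 lower ones, named after their values were seen, were Cish and Egr1. Cish, a feedback inhibitor induced by Stat5, stood at 5.62, 5.83 and 5.57 in Ediff against 1.29, 1.25 and 1.15 in EryCP repeat, a rise of 21.7-fold. It stood at -0.07, -0.23 and -0.24 in CD34- CD103- Epo against 0.13, 0.24, 0.28 and 0.37 in CD34- CD103-, a fall of 1.35-fold (adjusted p = 0.0315). That fall was not called with the slide block, spike-in centring or array-median centring (adjusted p = 0.124, 0.115 and 0.406). The samples do not overlap in either pair, and the difference was 4.88 ± 0.13 (adjusted p = 3.37e-10). Pim1, a survival kinase induced by Stat5, differed by 4.26 ± 0.15, Socs2 by 3.71 ± 0.37 and Socs3 by 3.50 ± 0.21, the latter both feedback inhibitors. In the CD34- CD103- response Pim1, Socs2 and Socs3 were 0.23, 0.34 and -0.10, with adjusted p from 0.287 to 0.803.

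Epor itself rose 8.74-fold in the Ediff response, from 2.85, 2.73 and 3.11 to 5.89, 6.07 and 6.11. Its CD34- CD103- samples were 1.58, 1.22, 1.70 and 1.10 without Epo and 0.92, 0.85 and 0.88 with it, samples that do not overlap (-0.52 ± 0.15, limma adjusted p = 0.106), and with slide as a fixed block the fall was called (-0.75, adjusted p = 0.0164). The difference was 3.65 ± 0.22 (adjusted p = 1.23e-07). Stat5a and the kinase Lyn were called lower in the difference, by -1.87 ± 0.16 and -1.42 ± 0.19. Bcl2l1, the survival gene of late erythroblasts, differed by 1.59 ± 0.19, and by 0.86 with spike-in centring, where it was not called.

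Genes called in both responses in opposite directions numbered 208, of which 137 rose in Ediff and fell in CD34- CD103- Epo. These 137 were 29% of the 472 falling genes of the CD34- CD103- response, while 43% of all genes rose in the Ediff response. The other 71 were 38.2% of its 186 rising genes, while 16.9% of all genes fell in the Ediff response. Among those with a gene name, the 8 with the largest smaller response were Rhd, Ermap, Tph1, Kel, C3, Grap2, Ahsg and Tspan33. All 8 were higher in the Ediff response. Because they were chosen from these same responses, their values are a description. Ermap, a red cell adhesion protein that carries the Scianna blood group, stood at 5.44, 5.84 and 5.59 in Ediff and 1.45, 1.52 and 2.26 in EryCP repeat. It went from -0.62, -1.01, -0.17 and -0.89 to -2.60, -3.18 and -3.26 with Epo in the other fraction. It changed 14.7-fold upward and 5.06-fold downward, a difference of 6.22 ± 0.37. Kel, a membrane protease that carries the Kell blood group, stood at 4.98, 5.06 and 4.87 in Ediff, at 2.54, 2.39 and 2.71 in EryCP repeat, at -1.33, -1.40 and -1.43 in CD34- CD103- Epo and at 0.38, -0.12, 0.37 and -0.01 in CD34- CD103-. Its responses were 2.42 ± 0.14 and -1.54 ± 0.13.

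Within slides, with 1 or 2 arrays on each side, the directions were the same for these red cell genes. Ermap was 3.99 and 3.99 in the Ediff response and -2.31 and -3.01 in the other, and Kel 2.53 and 2.43 against -1.76 and -1.76. Tspan33, a tetraspanin of erythroid progenitors, rose 32.6-fold and fell 2.48-fold, with values of -1.64 and -1.66 within slides for the fall. Tph1, which makes serotonin and is active in mast cells, rose 8.05-fold and fell 3.59-fold. Grap2, an adaptor of T cell and megakaryocyte signalling, rose 18.4-fold and fell 2.87-fold. C3, a complement protein, rose by 1.54 ± 0.09 and fell by 1.53 ± 0.08, and 1 of its 2 probes was called. Ahsg, a secreted glycoprotein, rose by 1.32 ± 0.18 and fell by 1.51 ± 0.17. With spike-in centring the rises of C3 and Ahsg were 0.50 and 0.28 (limma adjusted p = 0.0521 and 0.399), while the other 6 kept both calls. With normexp correction none of the 8 falls was called, with adjusted p from 0.199 to 1.

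**Figure D4:**
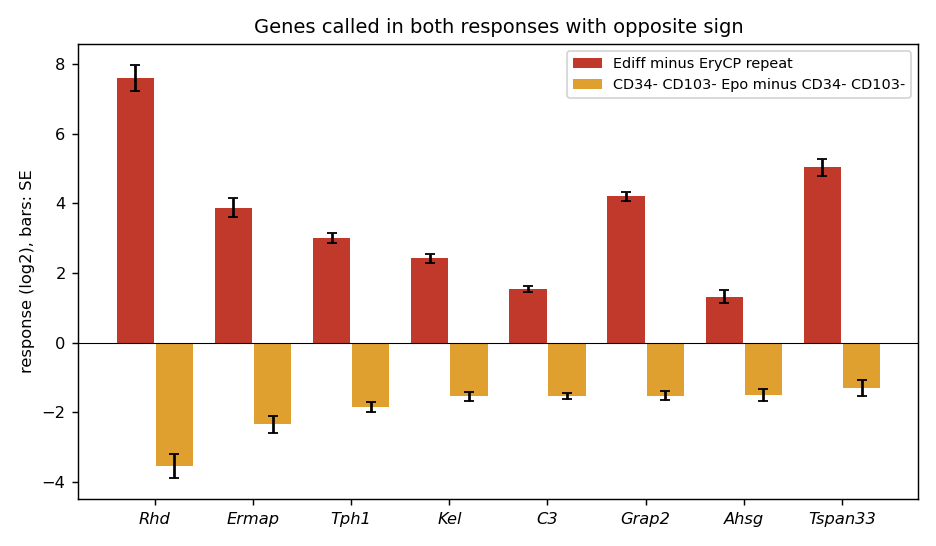
Response (y axis, log2, error bars SE) of the 8 genes on the x axis, with a bar for the Ediff response and one for the CD34- CD103- response. Each gene has a positive Ediff bar, from 1.32 for Ahsg to 7.60 for Rhd, and a negative CD34- CD103- bar, from -1.31 for Tspan33 to -3.54 for Rhd; the Rhd bar is the fitted value at background.

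Mast cell and basophil genes fell in both responses. Of 25 members, 20 fell in the Ediff response and 14 in the CD34- CD103- response, and 1 rose in the first (Prg2) and 0 in the second, beside 16.9% and 1.73% of all genes that fell. The difference was called lower for 17 and higher for 1 (median -2.87), beside 14.2% and 23.6% of all genes. With spike-in centring the counts were 18 and 1, beside 6062 lower and 888 higher over all 27292 genes. The mean level of the list ran from -1.66 to -1.54 in Ediff and 2.51 to 2.84 in EryCP repeat, and from 1.18 to 1.48 in CD34- CD103- Epo and 2.77 to 2.83 in CD34- CD103-. Hpgds and Mcpt9 were not above background on any Ediff array. In bulk samples, fewer cells of a type and less RNA per cell cannot be told apart. Whether the fall of these genes bears on the erythroid differences was not tested.

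Some mast cell genes fell mainly in the Ediff response. Cpa3, the carboxypeptidase of mast cell granules, went from 7.45, 7.47 and 7.22 to -1.74, -1.03 and -1.37, a fall of 433-fold. It stood at 8.20, 8.19, 8.07 and 8.15 in CD34- CD103- and 7.91, 8.04 and 8.05 with Epo, where the change was -0.15 ± 0.14 (limma adjusted p = 0.669). The difference was -8.61 ± 0.21 (adjusted p = 1.3e-10). Gzmb, a granzyme found in mast cells and basophils, fell by 7.05 ± 0.11 in the Ediff response and was 0.16 ± 0.10 in the other, a difference of -7.21 ± 0.15. Fcer1g, a chain of the IgE receptor, and Mitf, a mast cell transcription factor, differed by -3.74 and -3.09, of which 0.09 and -0.07 came from the CD34- CD103- response.

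Other proteases fell in both responses. Mcpt4, a chymase, went from 6.66, 6.53 and 6.09 to -0.27, 0.07 and -0.12 in the Ediff response. In the CD34- CD103- fraction it went from 7.30, 7.59, 7.49 and 7.48 to 4.23, 3.70 and 3.47 with Epo, a fall of 12.7-fold (-3.67 ± 0.19, limma adjusted p = 1.78e-06). The samples do not overlap in either pair, and the difference was -2.87 ± 0.27. Hdc, which makes histamine, fell by 7.47 ± 0.15 and 2.55 ± 0.14. Cma1, another chymase, fell by 5.55 ± 0.13 and 1.76 ± 0.12, and Hpgds, which makes prostaglandin D2, fell at least 85.9-fold and 2.55-fold. Mcpt1 was the member called higher in the difference: it fell by 1.90 ± 0.30 in the CD34- CD103- response and was 0.36 ± 0.32 in the Ediff response (adjusted p = 0.328). Near-identical copies of the Mcpt genes may share probe signal, so single members of that family are uncertain.

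**Figure D5:**
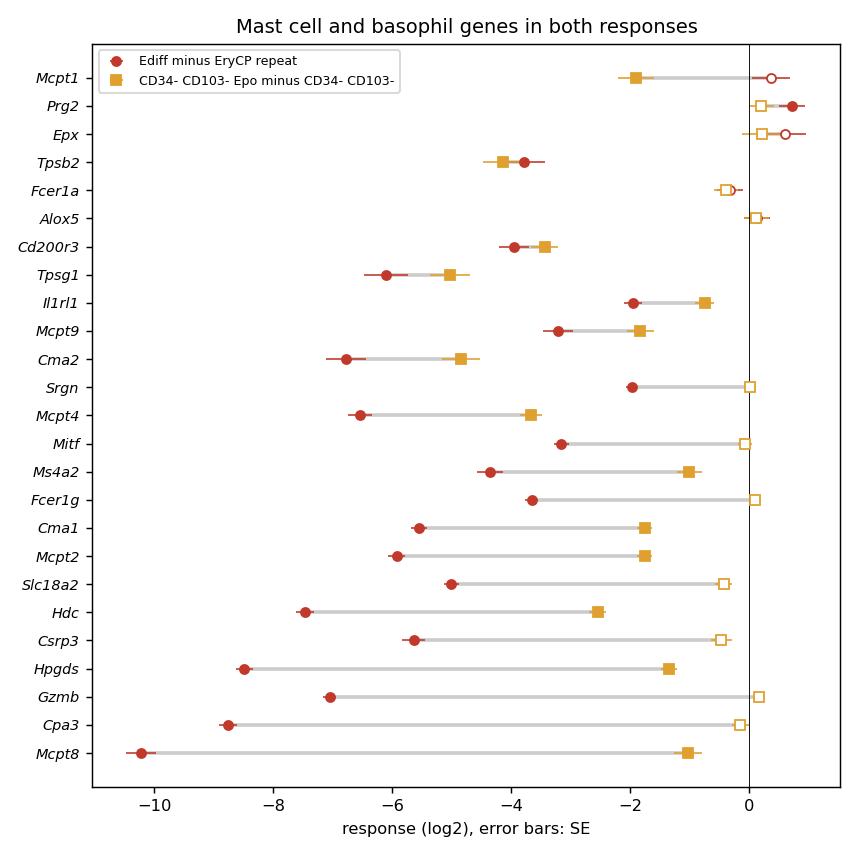
Response of each mast cell and basophil gene (genes on the y axis) in the Ediff comparison (circles) and the CD34- CD103- comparison (squares) on the x axis (log2, error bars SE); filled points passed the test. The Ediff points reach -10.22 for Mcpt8, and those of the CD34- CD103- response range down to -5.03 for Tpsg1, with Cpa3 at -0.15.

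Some genes fell in both responses with a small difference between them. The 8 named genes with responses of at least 2 in size, the same sign and the smallest difference were all falls, and the interval of the difference is given where both sides were measured. Tpsb2, a mast cell tryptase, went from 1.67, 1.65 and 0.67 to -1.86, -3.30 and -2.22, and from 2.01, 1.75, 1.86 and 1.67 to -2.10, -2.22 and -2.62. It fell by 3.79 ± 0.35 and 4.14 ± 0.33, a difference of 0.35 with a 95% interval from -0.71 to 1.41. Cd200r3, an activating receptor of mast cells and basophils, fell by 3.95 ± 0.25 and 3.44 ± 0.23, and the interval of the difference ran from -1.27 to 0.24. With slide as a fixed block its difference was -0.79 (limma adjusted p = 0.0301). Lyz1, a lysozyme, fell at least 8.38-fold in the Ediff response, where it was not above background, and by 2.45 ± 0.09 in the other. Its difference was called and at least 0.62 in size. The sign of that difference turned with normexp correction, with a normexp variant that left out spots of outlying background, and with the deposited value table.

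The rest of those 8 also had limits. Il7r, the receptor for interleukin 7, and Pira2, an immunoglobulin-like receptor, have no resolved difference, since they rest on groups at background. Carmil1, a regulator of actin, was called at -0.79 (limma adjusted p = 0.0306) without a resolved direction. For Itgb5, an integrin, and Maob, an amine oxidase, the intervals spanned -5.86 to 3.94 and -3.07 to 2.03, and CD34- CD103- Epo array 2 stood apart. Itgb5 was -0.24, -8.16 and 0.07 in CD34- CD103- Epo, and Maob -4.22, -8.11 and -3.96. Without that array the differences were -3.65 and -1.86 (adjusted p = 6.13e-07 and 0.00411), and neither gene then belongs with the shared falls.

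Neutrophil genes did not move as 1 group. Of 16 members, 6 were called higher in the difference and 3 lower (median 1.13), beside 23.6% and 14.2% of all genes. The 3 lower were the primary granule genes Mpo and Ctsg and Ms4a3, a gene of granulocyte-monocyte progenitors. Mpo, myeloperoxidase, went from 5.75, 5.61 and 5.87 to -1.40, -1.85 and -1.58, a fall of 163-fold. In the CD34- CD103- fraction it went from 7.59, 7.35, 7.36 and 7.39 to 7.94, 8.28 and 8.19, a rise of 1.64-fold (limma adjusted p = 0.0127). The difference was -8.07 ± 0.18. The rise was 0.40 with spike-in centring (adjusted p = 0.273) and 0.67 with slide as a fixed block (adjusted p = 0.0912). Ctsg, cathepsin G, differed by -7.44 ± 0.16 and Ms4a3 by -6.23 ± 0.14.

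In the CD34- CD103- response, 5 of the 16 neutrophil genes were called lower and 1 higher (Mpo), beside 1.73% and 0.682% of all genes. The lower ones, named after their values were seen, were S100a8, S100a9, Lcn2, Mmp8 and Igsf6. S100a8, a calcium-binding protein of neutrophils, went from 2.44, 2.46, 2.76 and 2.43 to -3.85, -1.38 and -4.19 with Epo, a change of -5.66 ± 0.68 (limma adjusted p = 0.00103). It also fell in the Ediff response, by 3.84 ± 0.73, and the difference of 1.82 ± 1.00 was not called (adjusted p = 0.175) but was 2.70 without CD34- CD103- Epo array 2 (adjusted p = 0.0215). S100a9, its partner, gave 1.96 ± 0.73 (adjusted p = 0.0532), and 2.50 without that array (adjusted p = 0.0125). Lcn2, which binds bacterial iron carriers, fell at least 8.7-fold in the CD34- CD103- response and was not above background in Ediff or EryCP repeat. The mean level of the list ran from -4.41 to -3.98 in Ediff, -2.87 to -2.55 in EryCP repeat, -2.56 to -2.17 in CD34- CD103- Epo and -1.25 to -0.91 in CD34- CD103-.

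Large falls of the CD34- CD103- response outside the neutrophil list, chosen after their values were seen, included a macrophage gene and mast cell proteases. Clec10a, a lectin of macrophages, went from 4.09, 4.41, 4.34 and 4.25 to 0.43, -0.05 and -0.22, a fall of 18.6-fold (limma adjusted p = 4.94e-07). In the other set it was 1.10, 1.16 and 0.54 in EryCP repeat and 0.34, 0.48 and 0.57 in Ediff (-0.47 ± 0.19, adjusted p = 0.0543), and the difference was 3.75 ± 0.26. Tpsg1, a tryptase, fell 32.6-fold and Cma2, a chymase, 28.8-fold in the CD34- CD103- response, and 68.5-fold and 110-fold in the Ediff response. The difference was -1.07 ± 0.50 for Tpsg1 (adjusted p = 0.119) and -1.93 ± 0.46 for Cma2 (adjusted p = 0.00663). Of 19 monocyte and macrophage genes, 6 were called higher in the difference and 5 lower, beside 23.6% and 14.2% of all genes. The list median was 0.37, or -0.36 with spike-in centring. Fcgr3, an Fc receptor, was among the 5 lower ones at -6.09 ± 0.13.

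Among probes with a gene name, the largest negative differences gathered genes of granules and of lymphoid and myeloid cells. Beside Mcpt8, Cpa3, Mpo and Ctsg, the 12 largest were Gem, a small GTPase (-8.31 ± 0.33), Cd52, a surface glycoprotein of leukocytes (-8.05 ± 0.17), Stap1, a signalling adaptor (at least 7.42 in size), Nkg7, a granule protein of cytotoxic cells (-7.84 ± 0.15), Serpinb1c, Serpinb1a, Fut7 and Sh2d1b1. Serpinb1a, an inhibitor of neutrophil proteases, fell by 7.93 ± 0.11 in the Ediff response and by 0.52 ± 0.10 in the other, the latter with an adjusted p of 0.0663 with the slide block. Fut7, which builds selectin ligands, fell by 7.2 ± 0.11 in the Ediff response and was 0.24 ± 0.10 in the other. Cd52 also rose in the CD34- CD103- response, by 0.74 ± 0.12 (limma adjusted p = 0.00649), a call lost with spike-in centring (0.42, adjusted p = 0.272) and with the slide block (0.69, adjusted p = 0.0646). The largest positive ones that are not described above were Cyp4b1, a cytochrome P450 (at least 7.67), Dusp8, a phosphatase (7.92 ± 0.66), Rab3il1 (7.13 ± 0.29) and Apol10b (7.07 ± 0.37).

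Stem and progenitor transcription factors were called lower for 9 of 19 and higher for 1, Lmo2, beside 14.2% and 23.6% of all genes (median -0.61, or 0.10 with the normexp variant that left out spots of outlying background). In the CD34- CD103- response limma called 0, with 2 higher and 2 lower at an unadjusted p under 0.05. That threshold gave 2692 higher and 1754 lower over all 27292 genes. Hmga2, a chromatin protein of fetal stem cells, went from 2.45, 2.42 and 2.28 to -3.95, -4.10 and -3.60 in the Ediff response. It stood at 3.78, 4.07, 3.60 and 3.94 in CD34- CD103- and 3.95, 3.95 and 4.00 with Epo, and its difference was -6.39 ± 0.19 (limma adjusted p = 6.66e-10). Erg, Fli1, Myb and Runx1, factors of stem and progenitor cells, differed by at least 2.44 in size for Erg and by -4.67, -2.34 and -2.13 for the others. The spot of Fli1 on CD34- CD103- Epo array 2 was an outlier by the scanner's marks and was left out of the fit.

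Megakaryocyte and platelet genes were called lower for 10 of 19 and higher for 3 (median -0.79), beside 14.2% and 23.6% of all genes. Fli1, F2r, the thrombin receptor (-2.18 ± 0.13), and Nbeal2, needed for platelet granules (-1.90 ± 0.21), led the list. Vwf, von Willebrand factor, differed the other way: it went from 1.61, 1.51, 1.85 and 1.41 to -1.01, -1.04 and -0.81 in the CD34- CD103- response, a fall of 5.85-fold (limma adjusted p = 7.83e-06), and fell by 0.52 ± 0.17 in the Ediff response. Of 20 lymphoid genes, 5 were called lower and 1 higher (median 0.31), beside the same shares of all genes. Gata3, a T cell factor, differed by -3.42 ± 0.25 and Vpreb1, a surrogate light chain of B cell precursors, by -1.71 ± 0.15.

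Receptors and adhesion molecules were mostly lower, beside 14.2% of all genes called lower in the difference and 23.6% called higher. Of 19 cytokine receptors, 10 were called lower and 2 higher, Epor and Csf1r (median -0.51). Il2rg, the shared chain of several interleukin receptors, differed by -2.29 ± 0.16. Of 24 adhesion and integrin genes, 15 were called lower and 4 higher (median -0.89). Itga6, Icam2 and Pecam1 differed by -4.61 ± 0.14, -3.52 ± 0.16 and -3.46 ± 0.11. Of 21 chemokines and their receptors, 10 were lower and 2 higher, with a median of 0.01 that became -0.72 with the slide block. Ccl9 differed by -3.85 ± 0.19, while Ccl7 differed by 3.04 ± 0.37, its fall of 11.3-fold being in the CD34- CD103- response.

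Of 16 myeloid transcription factors, 4 were called higher and 6 lower (median -0.44), beside 23.6% and 14.2% of all genes. Cebpb, a factor of granulocytes and macrophages, went from -2.19, -2.18 and -2.37 to 0.83, 1.07 and 0.74 in the Ediff response, and from -1.95, -1.64, -2.32 and -1.81 to -2.80, -2.88 and -3.10 in the other. It thus rose 8.73-fold and fell 2-fold, a difference of 4.13 ± 0.22 (limma adjusted p = 5.56e-08). Id2, an inhibitor of helix-loop-helix factors, fell in both, by 6.38 ± 0.15 and 1.62 ± 0.14. Nfil3, a leucine zipper factor, differed by -2.70 ± 0.24. Spi1, the myeloid factor PU.1, differed by -0.39 ± 0.19 and was not called (adjusted p = 0.125), but was -1.11 and called with spike-in centring.

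Cell cycle genes rose in the Ediff response relative to the array's upper quartile, and the difference depended on the scaling. Over all genes 23.6% were called higher in the difference and 14.2% lower. With spike-in centring these were 888 and 6062 of all 27292 genes. Of 24 mitosis genes, 19 were called higher in the difference and 0 lower (median 0.90), but 9 with array-median centring and 1 with spike-in centring (median 0.15). Ube2c, which drives exit from mitosis, went from 3.23, 3.12 and 3.09 to 5.57, 5.65 and 5.66, and differed by 2.46 ± 0.23. In CD34- CD103- it was 2.48, 2.03, 2.61 and 1.96, and 2.35, 2.46 and 2.06 with Epo, overlapping. In the CD34- CD103- response limma called 0 of 24, and 0 at an unadjusted p under 0.05. At that unadjusted p, 2692 of all 27292 genes were higher and 1754 lower. Of 25 S phase genes, 9 were higher and 1 lower, Mcm3 (median 0.19), and 1 and 3 with spike-in centring. These 25 changed by 0.10 to 0.44 in the CD34- CD103- response (median 0.24, beside 0.08 over all genes). At an unadjusted p under 0.05, 16 were higher there, beside 2692 of all 27292 genes. By limma 2 were called higher, Mcm5 and Gins1, beside 0.682% of all genes. With spike-in centring those 2 were 0.05 and 0.07 (adjusted p = 0.907 and 0.863). Ccne1, a cyclin that starts S phase, differed by 1.49 ± 0.14. Of 15 cell cycle inhibitors and Rb family members, 9 were higher and 2 lower (median 0.76), or 4 and 3 with spike-in centring, with Btg2 at 2.86 ± 0.17, Gadd45a at 2.22 ± 0.13 and Rb1 at 1.98 ± 0.13.

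Metabolic lists pointed in different directions, beside 23.6% of all genes called higher, 14.2% called lower and a median of 0.37. With spike-in centring 888 of all 27292 genes were called higher and 6062 lower, with a median of -0.36. Of 19 glycolysis and glucose transport genes, 11 were called lower and 5 higher (median -0.99), or 12 and 1 with spike-in centring. Hk2, a hexokinase, went from 3.06, 3.12 and 2.84 to -0.58, -0.46 and -0.68, and stood at 2.31, 2.41, 2.28 and 2.45 in CD34- CD103- and 2.63, 2.80 and 2.67 with Epo. The last 2 groups do not overlap, but the change of 0.34 ± 0.09 was not called (limma adjusted p = 0.0953). The difference was -3.92 ± 0.14. Of 19 cholesterol genes, 9 were higher and 2 lower (median 0.35), and 0 and 5 with spike-in centring, where the median was -0.37. Of 24 Myc network and ribosome biogenesis genes, 6 were higher and 3 lower (median 0.12), near the shares over all genes. With spike-in centring 0 were higher and 7 lower. Mycn differed by -3.47 ± 0.20. Mxd1, a Myc antagonist, fell by 1.05 ± 0.08 in the CD34- CD103- response and was 0.21 ± 0.09 in the Ediff response (adjusted p = 0.0532).

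The counts of the stress and survival lists below stand beside 23.6% of all genes called higher and 14.2% called lower. Over all 27292 genes, spike-in centring gave 888 higher and 6062 lower, with a median of -0.36. Of 20 autophagy genes, 12 were called higher and 2 lower (median 0.43), turning to 3 and 4 with spike-in centring (median -0.29). Wipi1 and Atg4a, which act in forming autophagosomes, differed by 1.95 ± 0.14 and 1.93 ± 0.16. Of 15 BCL2 family members, 5 were higher and 4 lower (median 0.18): Bax, which promotes cell death, differed by 1.53 ± 0.14, and Pmaip1, also a promoter of cell death, by -1.53 ± 0.16. Of 18 heat shock proteins and chaperones, 4 were higher and 6 lower (median -0.02), and Hspa1a differed by 2.79 ± 0.43. Of 20 immediate early genes, 4 were higher and 6 lower (median -0.18). Ier3 differed by -4.92 ± 0.25 and the phosphatases Dusp6 and Dusp2 by -3.47 ± 0.16 and -3.08 ± 0.16. Of 19 interferon response genes, 7 were higher and 3 lower (median 0.47, or -0.25 with spike-in centring).

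Interferon genes differed among themselves. Oasl2, an antiviral gene, went from below background on all EryCP repeat arrays to -1.14, -1.05 and -0.92 in Ediff, a rise of at least 41.4-fold, and fell 2.01-fold in the CD34- CD103- response (limma adjusted p = 0.0204). That fall was -0.77 with the slide block (adjusted p = 0.109). Its difference was at least 6.37. Ifit1, another antiviral gene, rose by 0.98 ± 0.38 and fell by 1.74 ± 0.35 (adjusted p = 0.0418 and 0.0268). The rise was -0.06 with spike-in centring (adjusted p = 0.92), and the fall had an adjusted p of 0.0908 with the slide block. Irf1, a transcription factor of the interferon response, fell by 3.11 ± 0.09 in the Ediff response and rose by 0.41 ± 0.09 in the CD34- CD103- response (adjusted p = 0.0342), a difference of -3.53 ± 0.13. The rise was 0.09 with spike-in centring and 0.38 with array-median centring (adjusted p = 0.798 and 0.546).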

How the data were processed

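Total RNA was labelled with Cy3 and hybridised to 1-colour Agilent arrays, 26 in all, of which 13 in 4 groups were used. The deposited scanner files hold spot intensities from Agilent Feature Extraction, version 10.1.1.1 for Ediff and EryCP repeat and 10.7.1.1 for the other pair, per the file headers, with a processed signal already corrected for background and other marks per spot (well above background, outlier, saturated). Log2 values make up the deposited value table, with no statement of their scale or centring. It followed the median signal in the first array set and the processed signal in the second, and served as an alternative.

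Here log2 of the processed signal minus the 75th percentile of each array was averaged over the spots of a probe, leaving out control spots and outlier marks. Of 41174 probes, 27071 were named through RefSeq accessions and 14103 kept their file names; the probe with the highest mean level stood for a gene. Where several probes of a called gene existed (2737 genes) 1475 had every probe called alike and 89 had a probe called the other way. Genes had to be well above background on every array of at least 1 group. limma 3.58.1 (lmFit, eBayes; R 4.3.3) was fitted over the 13 arrays, with p-values adjusted by Benjamini-Hochberg over 27292 genes. Gene groups came from 30 lists with 514 tested genes. Named genes were a fixed set, the 12 largest differences in each direction (ranked by their limits where a group was at background), the 8 strongest opposite and the 8 most alike responses, the 3 members of each list with the smallest p, and genes needed for small counts. The largest, opposite and most alike were taken only from probes named through RefSeq. The members and lists were chosen with earlier results of these data known. Alternatives were other centring, quantile normalization, normexp correction, other filters, slide as a block, other fits of the spread and leaving out each array. In simulated data for the difference (26827 genes), changes of 0.5, 1 and 2 on the log2 scale were put into 67, 67 and 66 genes. Of these, 0%, 53.7% and 78.8% were recovered, and 7 unchanged genes were called. The adjustment is stricter when few genes change, and 37.8% were called in the data. The recovered shares therefore set no limit on the differences that can be called here. The number of arrays limits the precision. Some results are not reported here.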

Additional observations from a re-analysis of the deposited data

Results flagged for a closer look

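In the CD34- CD103- group, 1 array stood apart from the other 3 by Dixon's criterion (0.829 for 4 samples) for 7 of the 129 genes examined. Chance flags about 1 in 20 groups. The level was -0.73 for C3 on array 1 (nearest -0.85), 4.59 for Cd34 on array 3 (nearest 5.17), 3.59 for Cd52 on array 1 (nearest 3.36) and 4.28 for Kit on array 1 (nearest 4.63). It was 7.59 for Mpo on array 1 (nearest 7.39), 2.76 for S100a8 on array 3 (nearest 2.46) and 0.80 for Tph1 on array 3 (nearest 0.54).

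The 8 genes of strongest opposite response were chosen for responses of opposite sign, so their difference is a description and no further test. It is listed for its size, and the rises of C3 and Ahsg were not called with spike-in centring (0.50 and 0.28, limma adjusted p = 0.0521 and 0.399). The difference was 11.15 for Rhd, 6.22 for Ermap, 4.85 for Tph1, 3.96 for Kel, 3.08 for C3, 5.72 for Grap2, 2.83 for Ahsg and 6.34 for Tspan33.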

How the results depend on the processing

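With normexp background correction the difference was called for 786 genes (231 higher, 555 lower), the Ediff response for 1625 (587 higher, 1038 lower) and the CD34- CD103- response for 19 (0 higher, 19 lower; limma gave 32 higher and 209 lower at an unadjusted p under 0.05). A variant that left spots of outlying background out of that correction was chosen after seeing the data: 17858 genes were then higher in the Ediff response, 1351 were called in the CD34- CD103- response (781 higher), and 68% of calls in the difference were higher. Spike-in centring gave 888 higher and 6062 lower in the difference, 860 and 12246 in the Ediff response, and 419 (2 higher) in the CD34- CD103- response. Array-median centring gave 6784 (2903 higher), 5964 higher, and 300 (23 higher, 277 lower). Quantile normalization of 13 arrays gave 7502 higher in the Ediff response. The authors' deposited table gave 6432 higher there, 1451 in the CD34- CD103- response (472 higher, 979 lower), and 54.4% higher in the difference. The CD34- CD103- response was called for 1112 genes with slide as a random block (431 higher), 1221 with a spread per array set (522 higher), 1155 with trend and robust settings (579 higher), and 78 higher with all 26 arrays. Leaving out 1 array gave 8505 to 12876 calls in the difference (4967 to 8651 higher, 3506 to 4225 lower), 13204 to 19003 in the Ediff response (8949 to 14189 higher, 4232 to 4814 lower) and 289 to 981 in the CD34- CD103- response (39 to 483 higher, 250 to 559 lower). Without CD34- CD103- 2 or 4, or Epo 1, 2 or 3, the last count was 401, 377, 348, 305 and 289. Signs turned for Carmil1 (1.79, 1.30 and 2.17) and Lyz1 (2.17, 1.46 and 0.88) with normexp, its variant and the deposited table. They turned for the medians of carbonic anhydrases (-0.07), cholesterol (-0.37), autophagy (-0.29) and interferon genes (-0.25) with spike-in centring, and of stem and progenitor factors (0.10) with the normexp variant. The cause was not tested. Probes at background limit differences to bounds. No paired analysis was possible because the replicate numbers follow accession order and the labels pair no samples.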
